A study of Mus musculus with 5 samples.

Results

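NF_Pvalb and NF_Calb1 are subtypes of large sensory neurons of the mouse dorsal root ganglion (DRG), and they were compared with each other. NF marks neurofilament-containing neurons, and each subtype carries the name of a calcium-binding protein gene, Pvalb (parvalbumin) or Calb1 (calbindin). Members were all cells given either name in the authors' annotation, in which the second is spelled NF_Ca1b1: 113 NF_Pvalb and 180 NF_Calb1 cells, 293 of 3352 cells and 2 of 14 cell types. The cells came from the lumbar DRGs of 5 wild-type, untreated C57BL/6 mice, 18 weeks old, of both sexes, and were profiled by droplet-based 3′ single-cell RNA-Seq with unique molecular identifiers (UMIs). All cells shared this genotype and the absence of treatment, so the only comparison was between subtypes within mice. Cell names carried 5 library identifiers, numbered 1 to 5 here, which the sample labels do not tie to a replicate or a sex.

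DRG neurons send one branch to the periphery and one to the spinal cord. Those rich in neurofilament are mostly large, myelinated and fast-conducting, and include proprioceptors, which report muscle length and tension, and low-threshold mechanoreceptors, which report touch to the skin. Parvalbumin, Runx3, Etv1 and the neurotrophin-3 receptor Ntrk3 are classical proprioceptor genes, whereas Ret, Ntrk2 and Maf are known from touch neurons.

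NF_Pvalb was represented by 6, 13, 12, 24 and 58 cells in libraries 1 to 5, and NF_Calb1 by 16, 29, 44, 24 and 67 cells. NF_Pvalb thus made up 2.41 to 4.23% of a library's cells, and NF_Calb1 2.98 to 9.76%. UMIs were summed over the cells of a subtype in each library, which gave 5 sums against 5 sums, paired by library. The sums held 521495 to 3282958 UMIs for NF_Pvalb and 1396012 to 4816250 for NF_Calb1, and the whole libraries 13050375 to 88886919. Of all cell barcodes 7 occurred in more than 1 library, and 3 cells of the 2 subtypes carried one of these. The NF_Pvalb sum of library 1 is the thinnest, with 6 cells, and single cells can weigh heavily in it. Levels are given as UMI counts scaled to a common total of 1000000 per sum (CPM), and all fold changes are NF_Pvalb over NF_Calb1, so that negative log2 values are higher in NF_Calb1.

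Depth per cell differed between the subtypes in no single direction over the 5 libraries. The median cell held 66720 UMIs and 7317 genes in NF_Pvalb and 77900 UMIs and 7883.5 genes in NF_Calb1. Within libraries, the median UMI count differed by -2938 ± 19141 (SD, n = 5), higher in NF_Pvalb in 2 of 5 libraries (exact two-sided sign-flip test, p = 0.8125). With this spread and 5 libraries the test cannot show that depths were equal. With every cell thinned to 20000 UMIs, NF_Pvalb cells held 4671 ± 118 genes and NF_Calb1 cells 4838 ± 96.2, lower in NF_Pvalb in 5 of 5 libraries (exact sign-flip test, p = 0.062, the smallest that 5 libraries allow). Cells under that depth, 4 NF_Pvalb and 2 NF_Calb1, were left out of the thinned values.

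The labels were checked against their name genes, which serve as a description. Both were part of the fit over all genes and are counted among its calls, but no test of them is given because the subtypes were named for them. Pvalb, a calcium buffer (chr15:78191112-78206400, minus strand, GRCm38.p6), stood at 2504, 2394, 3090, 2795 and 3083 CPM in NF_Pvalb and at 236, 70.2, 47.8, 212 and 174 CPM in NF_Calb1 (libraries 1 to 5). Calb1, another calcium buffer (chr4:15881264-15906709, plus strand), stood at 11.5, 4.94, 14.3, 15.6 and 17.7 CPM in NF_Pvalb and at 105, 213, 155, 221 and 345 CPM in NF_Calb1. Neither gene's ranges overlapped, and each followed the label. Pvalb was highest of all 14 types in NF_Pvalb and second highest in NF_Calb1, and Calb1 was highest in NF_Calb1.

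Per cell, the separation by these genes was less complete. All 113 NF_Pvalb cells had a Pvalb UMI, as did 122 of 180 NF_Calb1 cells (67.8%), against 24.1% of satellite glia, whose median depth was 17729 UMIs. The Calb1 shares were 57.2% in NF_Calb1, 37.2% in NF_Pvalb and 6.02% in satellite glia. At 20000 UMIs a cell the Pvalb share in NF_Calb1 was 41.6% (21.5% in glia), and the Calb1 shares were 54.5% in NF_Calb1, 20.2% in NF_Pvalb and 3.08% in glia. Of 249 satellite glia, 184 fell under that depth and were left out, among them all 22 of library 5. These glial shares thus describe only the deepest glia. Of the NF_Calb1 cells, 74 had UMIs of both genes, 48 of Pvalb only, 29 of Calb1 only and 29 of neither. By the share of a cell's UMIs that were Pvalb, 28 NF_Calb1 cells lay above the lowest NF_Pvalb cell and 0 above the NF_Pvalb median.

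**Figure D1:**
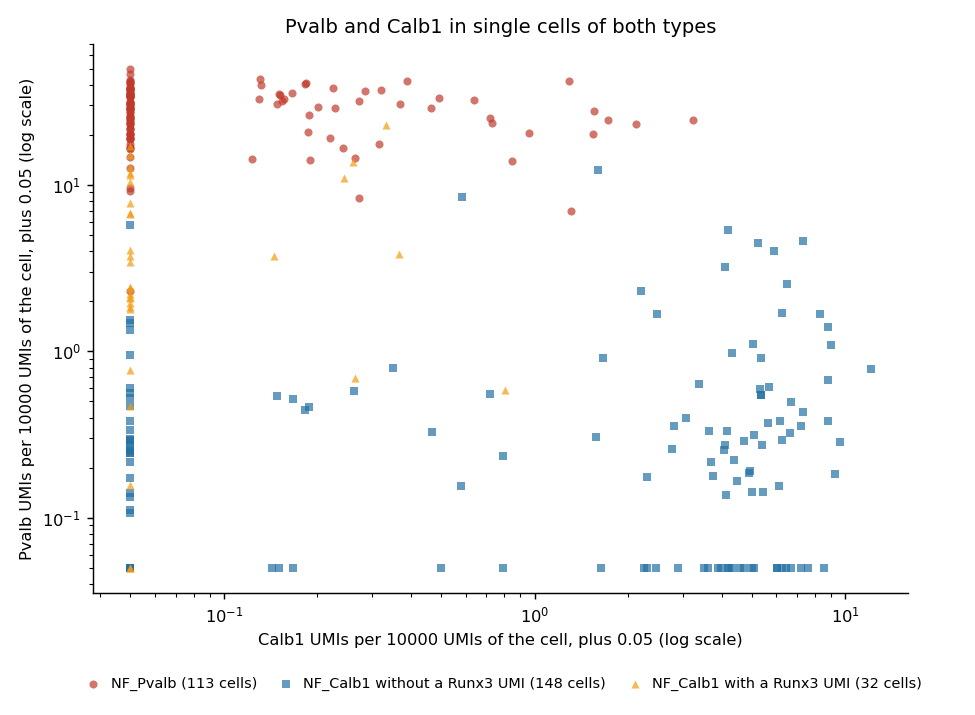
Pvalb (vertical) and Calb1 (horizontal) in single cells, as UMIs per 10000 UMIs of the cell plus 0.05 on log axes, each point 1 cell. The 113 NF_Pvalb cells (circles) lie at high Pvalb apart from 1 low cell, whereas the NF_Calb1 cells, drawn as 148 without (squares) and 32 with (triangles) a UMI of Runx3, spread over both axes.

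Across the whole transcriptome the subtypes were close, though not each other's nearest type in every respect. Over 16248 genes the profiles of NF_Pvalb and NF_Calb1 from the same library correlated at r = 0.943 ± 0.00822 (SD over 5 libraries, log2(CPM + 1), across genes, which are not independent). The same value was 0.900 ± 0.0185 between NF_Pvalb and the third neurofilament subtype, NF2_Ntrk2.Necab2, and 0.897 ± 0.0107 between NF_Pvalb and the peptidergic subtype PEP2_Htr3a.Sema5a. Both lay below the value with NF_Calb1 in 5 of 5 libraries (exact sign-flip test, p = 0.062 for each). NF_Calb1, by contrast, correlated at 0.946 ± 0.00892 with PEP2_Htr3a.Sema5a, and its value with NF_Pvalb was higher than that in 2 of 5 libraries (exact sign-flip test, p = 0.625).

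Of 8919 genes with enough counts to test, 403 (4.52%) were called higher in NF_Pvalb and 586 (6.57%) higher in NF_Calb1, 989 (11.1%) in all. A call needed an adjusted p below 0.01 in edgeR's quasi-likelihood test with a term for the library (Benjamini-Hochberg over all genes tested), at least a 2-fold change, and detection in no fewer than 25% of cells in the higher subtype. Because the subtypes were made by clustering these same counts, the calls describe how far the subtypes lie apart and cannot serve as separate proof of them. The p-values measure the spread between these 5 libraries. The median log2 fold change over all genes tested was 0.01.

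Genes higher in NF_Calb1 reached larger folds. At least 8-fold differences numbered 45 of the genes called higher in NF_Pvalb and 137 of those called higher in NF_Calb1, and at least 16-fold differences 25 and 71. Ranges of the 5 libraries did not overlap for 344 of 403 genes called higher in NF_Pvalb and 528 of 586 higher in NF_Calb1. The calls already required a difference between subtypes, and the share over all genes tested was not counted. Each library gave a similar picture on its own: the median log2 ratio of the genes called higher in NF_Pvalb was 1.25 to 1.53, and of those called higher in NF_Calb1 -2.12 to -1.60. Library 1, with 6 NF_Pvalb cells, had the smallest medians in both directions.

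The directions differed in where else the genes were found. Among all 14 types, 225 of the 403 genes called higher in NF_Pvalb (55.8%) had their highest level in NF_Pvalb. Of the 586 genes called higher in NF_Calb1, 100 (17.1%) were highest in NF_Calb1. Both sets were picked for being higher in their subtype, and the same share over all genes tested was not counted. The other genes called higher in NF_Calb1 peaked mainly in PEP2_Htr3a.Sema5a (77 genes), Th neurons (67), endothelial cells (65) and NF2_Ntrk2.Necab2 (64), with 50 in satellite glia. The other genes called higher in NF_Pvalb peaked mainly in satellite glia (36 genes), PEP3_Trpm8 (34) and endothelial cells (31).

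**Figure D2:**
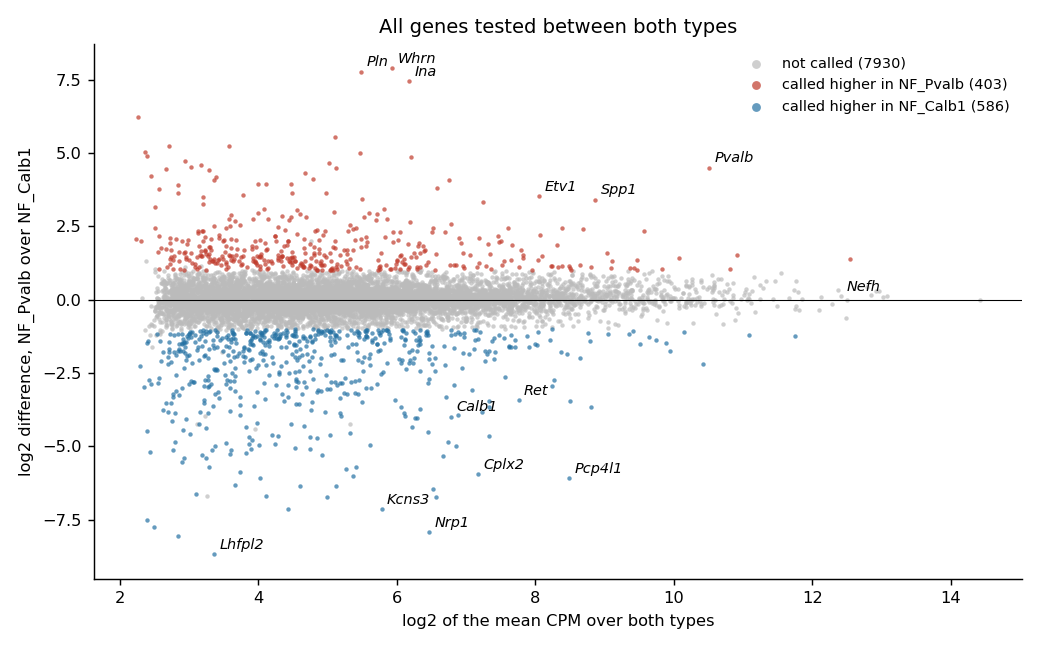
Log2 fold change (NF_Pvalb over NF_Calb1) against the log2 of the mean CPM over both subtypes for the 8919 genes tested, with called genes coloured by the higher subtype. The 586 genes called higher in NF_Calb1 (blue, below 0) include 71 of at least 16-fold, and the 403 higher in NF_Pvalb (red, above 0) include 25.

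Among the 12 genes with the largest fold higher in NF_Pvalb, Pvalb included, 3 were close to absent from NF_Calb1. Whrn encodes whirlin, a scaffold protein of hair cell stereocilia also known from proprioceptors. Whrn stood at 138, 153, 77.2, 111 and 129 CPM in NF_Pvalb and at 0, 0.332, 1.02, 0 and 0.415 CPM in NF_Calb1, a log2 fold change of 7.89 ± 0.26 (SE; adjusted p = 1.08e-12). A Whrn UMI was found in 92.0% of NF_Pvalb cells, 3.33% of NF_Calb1 cells and 11.6% of satellite glia, so that its level in NF_Calb1 was at background. Without library 3 the fold was 8.70. Ina, which encodes the intermediate filament α-internexin, stood at 127, 173, 126, 149 and 143 CPM against 1.43, 1.99, 0.254, 1.17 and 0.208 CPM (log2 7.44 ± 0.24). Pln, which encodes phospholamban, an inhibitor of the endoplasmic reticulum calcium pump, stood at 67.1 to 123 CPM against 0 to 0.831 CPM (log2 7.77 ± 0.25). For all 3 the lowest NF_Pvalb library was far above the highest NF_Calb1 library.

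The remaining leading genes of NF_Pvalb were of mixed function. Sv2a, a synaptic vesicle glycoprotein, averaged 67.6 CPM against 1.34 CPM (log2 5.53 ± 0.21), and Kcnip2, a cytoplasmic partner of Kv4 potassium channels, 140 against 6.54 CPM (log2 4.85 ± 0.30). Wnt signalling was represented by Wls, the carrier that brings Wnt proteins to the cell surface (85.6 against 3.12 CPM), and by the ligand Wnt7a (52.1 against 3.19 CPM). Inhbb, the activin B subunit, averaged 22.9 against 0.880 CPM (log2 5.23 ± 0.47, and 6.06 without library 2 or 4.43 without library 5). Plekhg1, a guanine nucleotide exchange factor, and Nos1ap, an adaptor of neuronal nitric oxide synthase, rose by log2 4.65 and 4.32. Pcdh8, a protocadherin, stood at 136, 46.4, 55.4, 41.1 and 54.5 CPM against a mean of 3.12 CPM (log2 4.50 ± 0.30). The high Pcdh8 value was that of library 1, in which 1 cell held 60.6% of its UMIs, and the fold was 5.21 without library 2.

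Some leading genes of NF_Calb1 came down to a few UMIs in NF_Pvalb. Nrp1, a co-receptor of class 3 semaphorins and of VEGF, stood at 0, 0, 2.52, 0.623 and 0.305 CPM in NF_Pvalb and at 120, 186, 206, 173 and 192 CPM in NF_Calb1 (log2 -7.94 ± 0.28, adjusted p = 2.18e-12; -8.89 without library 3). Kcns3, a modulatory potassium channel subunit, stood at 5.75, 0, 0, 0.623 and 0.305 CPM against 125, 96.4, 112, 102 and 108 CPM (log2 -7.15 ± 0.32; -8.26 without library 1). Both were found in 2.65% of NF_Pvalb cells, against 76.1% of NF_Calb1 cells for Nrp1 and 80.0% for Kcns3. Pcp4l1, a gene related to the small calmodulin regulator Pcp4, stood at 523 to 847 CPM in NF_Calb1 and 5.18 to 19.9 CPM in NF_Pvalb (log2 -6.09 ± 0.19).

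For 4 of these leading genes NF_Pvalb held 2 UMIs or fewer, so ratios of summed UMIs are given with their 95% counting interval. Lhfpl2, a tetraspan membrane protein gene, had 328 UMIs in NF_Calb1 and 0 in NF_Pvalb, at least 56.0-fold higher (against a floor of 3 UMIs over the group). Tmem108 had 668 UMIs against 2, a ratio of 171 (47.2 to 1416.5), Tmem54 495 against 2, a ratio of 127 (34.9 to 1050), and Ccdc141 386 against 2, a ratio of 98.9 (27.2 to 819.7). Intervals and floors cover counting error only.

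The other leading genes of NF_Calb1 fell in NF_Pvalb by similar factors. Galnt14, an enzyme that starts mucin-type glycosylation, averaged 63.1 CPM in NF_Calb1 and 0.307 CPM in NF_Pvalb (log2 -6.75; -7.74 without library 5). Kcnd3, the Kv4.3 potassium channel, averaged 68.8 against 0.930 CPM (log2 -6.36, and -7.51 without library 3 or -5.72 without library 5). Sorl1, a sorting receptor, averaged 180 against 2.62 CPM (log2 -6.44), and Hoxd1 48.0 against 0.694 CPM (log2 -6.36; -7.00 without library 4). S100a16, a calcium-binding protein gene, averaged 187 against 1.30 CPM (log2 -6.72), and was detected in 99.2% of satellite glia, 40.6% of NF_Calb1 cells and 9.73% of NF_Pvalb cells.

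**Figure D3:**
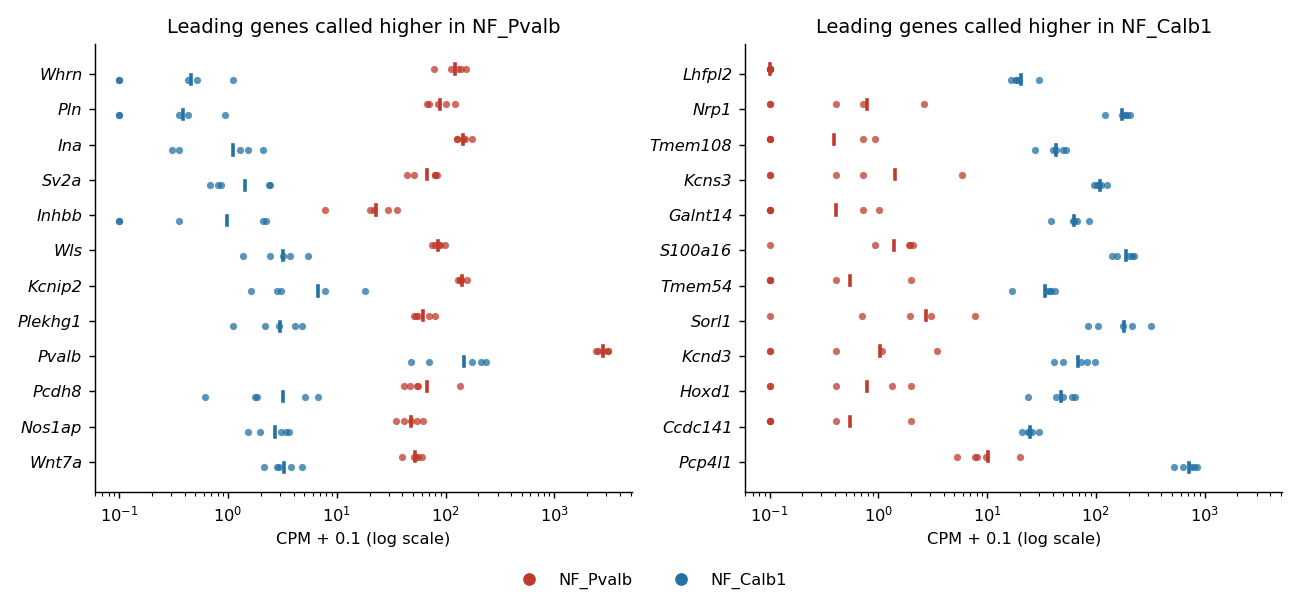
Levels (CPM + 0.1, log axis) of the 12 genes with the largest fold in each direction, with 1 point per library and subtype and a bar at the mean. The points of the 2 subtypes stand apart for every gene, with NF_Pvalb at 0 in all libraries for Lhfpl2.

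The counts of list members called are set beside the shares over all genes tested, 4.52% higher in NF_Pvalb and 6.57% higher in NF_Calb1. Of 12 proprioceptor markers, 7 passed the filter on low counts and 6 of these were called higher in NF_Pvalb, Pvalb included, with a list median log2 of 3.52. Runx3, the transcription factor of proprioceptor identity (chr4:135120645-135177990, plus strand), stood at 111, 155, 144, 166 and 170 CPM in NF_Pvalb and at 73.8, 23.9, 22.1, 28.2 and 22.0 CPM in NF_Calb1 (log2 2.44 ± 0.24, adjusted p = 3.75e-07). Without library 1, the highest in NF_Calb1, the log2 fold change of Runx3 was 2.82. Etv1, an ETS factor needed for the central connections of proprioceptors, stood at 397, 561, 436, 467 and 578 CPM against 8.60, 72.2, 52.7, 50.5 and 45.7 CPM (log2 3.52 ± 0.21). Spp1, osteopontin, stood at 911, 733, 728, 758 and 1099 CPM against 115, 97.4, 73.5, 68.1 and 70.2 CPM (log2 3.40 ± 0.15). All 3 were separated by library without overlap. Lmcd1 and Whrn made up the rest, and Nxph1, which did not pass the filter, had 51 UMIs in NF_Pvalb and 0 in NF_Calb1, at least 33.2-fold higher.

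The one tested marker of this list not called was Ntrk3, the receptor of neurotrophin-3. Ntrk3 stood at 205, 185, 176, 153 and 147 CPM in NF_Pvalb and at 399, 377, 405, 290 and 234 CPM in NF_Calb1. It was thus higher in NF_Calb1 in every library, by log2 -0.89 ± 0.11 (adjusted p = 4.43e-06), under the 2-fold minimum. Counted per cell, another quantity, Ntrk3 was the neurotrophin receptor of the Trk family with the most UMIs in 111 of 113 NF_Pvalb cells (98.2%), but in 89 of 180 NF_Calb1 cells (49.4%), and Ntrk2 held that place in 82 of these 180 (45.6%).

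The promoters of 3 of these genes are shown because Runx3 and Etv1, factors of the RUNX and ETS families, were both higher in NF_Pvalb along with Pvalb and Spp1. The 250 bases before the start are from RefSeq (GRCm38.p6), written 5′ to 3′ on the gene's strand, Pvalb at chr15:78206401-78206650 (minus strand), Runx3 at chr4:135120395-135120644 (plus strand) and Spp1 at chr5:104434861-104435110 (plus strand). Capitals mark the RUNX letters TGTGGT or ACCACA and the ETS letters GGAAGT or ACTTCC, each searched on both strands.
Pvalb: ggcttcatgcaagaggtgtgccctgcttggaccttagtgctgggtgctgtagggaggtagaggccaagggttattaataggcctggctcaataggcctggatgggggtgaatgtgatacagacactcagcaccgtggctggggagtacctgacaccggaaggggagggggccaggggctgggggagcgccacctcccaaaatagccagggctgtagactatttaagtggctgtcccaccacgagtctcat
Runx3: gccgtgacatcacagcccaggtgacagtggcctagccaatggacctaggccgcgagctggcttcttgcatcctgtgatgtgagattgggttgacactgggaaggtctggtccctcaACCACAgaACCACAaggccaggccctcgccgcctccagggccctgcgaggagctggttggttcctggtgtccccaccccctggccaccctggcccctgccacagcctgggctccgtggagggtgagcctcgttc
Spp1: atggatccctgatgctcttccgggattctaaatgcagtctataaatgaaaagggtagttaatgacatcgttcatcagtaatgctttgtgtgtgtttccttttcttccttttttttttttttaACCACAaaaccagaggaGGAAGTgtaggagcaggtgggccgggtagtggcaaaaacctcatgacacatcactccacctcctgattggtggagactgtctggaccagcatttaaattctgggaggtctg
Pvalb held neither in this window, Runx3 held 2 RUNX matches and Spp1 1 of each kind. RefSeq lists a second promoter for each of the 3 genes, not printed, which held 0 matches of either kind. RUNX letters were present in 14% of all 32851 promoters of this length and ETS letters in 19.7%, so single matches are common, and a match is a description of the letters only.

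Touch neuron markers were called in both directions. Of 18 markers, 11 passed the filter, 6 were called higher in NF_Calb1, Calb1 included, and 2 higher in NF_Pvalb (list median log2 -1.87). Ret, the signalling receptor of GDNF family ligands, stood at 38.4, 52.4, 26.9, 31.1 and 30.8 CPM in NF_Pvalb and at 255, 597, 421, 365 and 347 CPM in NF_Calb1 (log2 -3.44 ± 0.14). Ntrk2, the receptor of BDNF, stood at 5.79 to 11.5 CPM against 105 to 153 CPM (log2 -3.98 ± 0.18). Maf, Cadps2 and Ptgfr were also called higher in NF_Calb1, at log2 -1.87, -3.17 and -2.54. The 2 markers higher in NF_Pvalb were Shox2, a homeodomain factor (240 ± 74.2 against 84.9 ± 16.9 CPM, log2 1.56 ± 0.14), and Cntnap2, a juxtaparanode protein gene (548 against 251 CPM, log2 1.19). Gfra2, the neurturin receptor, had 2 UMIs in NF_Pvalb and 258 in NF_Calb1, a ratio of 66.1 (18.1 to 549).

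The neurotrophin and GDNF receptors followed the same split, with 5 of 10 tested called higher in NF_Calb1 and 2 higher in NF_Pvalb. Besides Ret and Ntrk2, NF_Calb1 was higher in Ngfr, the p75 neurotrophin receptor (540 ± 67.6 against 77.9 ± 9.16 CPM, log2 -2.75 ± 0.12), in Gfra1, the GDNF co-receptor (151 against 37.0 CPM, log2 -2.01), and in Sorcs3 (log2 -2.56). Sort1, sortilin, and its relative Sorcs1 were the 2 higher in NF_Pvalb (log2 2.81 ± 0.24 and 1.46).

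Among 33 sensory lineage transcription factors, 23 were tested, 6 called higher in NF_Pvalb and 8 higher in NF_Calb1. Relatives in the ETS family moved in opposite directions: Etv1 was higher in NF_Pvalb (above), and Etv5 stood at 0 to 3.84 CPM in NF_Pvalb and 53.7 to 92.4 CPM in NF_Calb1 (log2 -5.79 ± 0.28). Esrrg, an orphan nuclear receptor, averaged 70.0 against 14.8 CPM (log2 2.43 ± 0.17), and Cux2, a cut homeodomain factor, 13 against 1.30 CPM (log2 3.63). NF_Calb1 was higher in Casz1, a zinc-finger factor (66.8 against 9.39 CPM, log2 -2.67), in Isl2 (log2 -1.99), in Nfib (log2 -1.75) and in Pou4f1, the pan-sensory factor Brn3a (281 against 119 CPM, log2 -1.20). Isl1, another pan-sensory factor, was 0.72 higher in NF_Pvalb on the log2 scale, under the 2-fold minimum, and Runx1 was not called (log2 0.43, adjusted p = 0.17).

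Hox genes, which mark position along the body axis, also differed although all cells were lumbar. Of 15 tested, 4 were called higher in NF_Pvalb and 3 higher in NF_Calb1, with a list median log2 of 0.01. Hoxc10 averaged 53.0 ± 9.82 CPM against 15.6 ± 7.74 CPM (log2 2.00 ± 0.23) and Hoxb9 112 against 43.1 CPM (log2 1.44). Hoxd1 (above) and Hoxb5, at 0 to 7.47 CPM in NF_Pvalb and 38.2 to 58.1 CPM in NF_Calb1 (log2 -3.56 ± 0.26), went the other way. Hoxc9 was also higher in NF_Pvalb (log2 1.30), as was its neighbour Hoxc8 (log2 1.26, with the call lost without library 5). Hoxa7, Hoxa9, Hoxd8 and Hoxd9 had log2 values of 0.14, 0.28, 0.01 and -0.29, none called.

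Several pairs of related genes were higher in opposite subtypes. Slc17a7 and Slc17a6 encode the vesicular glutamate transporters VGLUT1 and VGLUT2. Slc17a7 stood at 500, 704, 437, 380 and 424 CPM in NF_Pvalb and at 221, 296, 224, 193 and 206 CPM in NF_Calb1 (log2 1.14 ± 0.10, adjusted p = 1.23e-07). Slc17a6 stood at 3.84, 16.8, 16, 21.8 and 25.9 CPM against 279, 321, 264, 262 and 296 CPM (log2 -3.83 ± 0.18). The ranges of the subtypes did not overlap for either gene.

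In transmitter release, 4 of 21 tested genes were called higher in NF_Pvalb and 4 higher in NF_Calb1. The complexins, which clamp and trigger vesicle fusion, differed: Cplx2 stood at 1.92 to 5.93 CPM in NF_Pvalb and 256 to 349 CPM in NF_Calb1 (log2 -5.96 ± 0.17), while Cplx1 was not called (1741 against 1334 CPM, log2 0.45). Syt6, a synaptotagmin, had 3 UMIs in NF_Pvalb and 484 in NF_Calb1, a ratio of 82.7 (28.1 to 402). Snap25, a core fusion protein, averaged 2378 against 1222 CPM (log2 1.04), just past the 2-fold minimum, and fell under it without library 3 (0.94).

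Potassium channels formed the largest channel group, with 4 of 25 tested voltage-gated genes or partners called higher in NF_Pvalb and 5 higher in NF_Calb1. Kcnc1, the fast-deactivating Kv3.1 channel, averaged 286 ± 34.7 CPM in NF_Pvalb and 77.1 ± 15.4 CPM in NF_Calb1 (log2 1.99 ± 0.12). Members of the Kv4 complex were called in both directions, with Kcnip2, Kcnip1 (log2 1.87) and Kcnd2 (log2 1.37) higher in NF_Pvalb and Kcnd3 and Kcnip3 (27.2 against 200 CPM, log2 -2.91) higher in NF_Calb1. With equal cell numbers the fold of Kcnip2 was 5.90, and that of Kcnd2 was 1.38 with its call lost (adjusted p = 0.0174). Kcnq5, an M-current channel, was 2.87 lower in NF_Pvalb on the log2 scale, with -3.53 without library 1. Among other potassium channels, Kcnj11, the pore of the ATP-sensitive channel, averaged 19.7 against 1.33 CPM (log2 4.16 ± 0.36), Kcnmb4 rose by log2 2.84 and Kcnk1 by 1.18, and Kcnj3 was lower in NF_Pvalb (log2 -1.06).

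Of 9 sodium channel genes tested, 0 were called higher in NF_Pvalb, where 4.52% of all genes were, and 3 higher in NF_Calb1, where 6.57% were. The 3 were Scn9a, Nav1.7 (204 against 42.2 CPM, log2 -2.32), Scn11a, Nav1.9 (51.4 against 2.91 CPM, log2 -3.77), and the atypical Scn7a (550 against 152 CPM, log2 -1.86). Scn1a and Scn8a, the fast channels of large neurons, had log2 values of 0.05 and -0.16, neither called. Of 10 calcium channel genes, 0 were called higher in NF_Pvalb and 5 higher in NF_Calb1, all 5 of them auxiliary subunits (Cacnb1, Cacnb3, Cacnb4, Cacna2d1 and Cacna2d2, log2 -2.12 to -1.35). Cacna1h, a T-type channel known from fine touch afferents, did not pass the filter and had 2 UMIs in NF_Pvalb and 150 in NF_Calb1, a ratio of 38.4 (10.5 to 320).

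Acid-sensing channel subunits formed a further pair. Asic1 averaged 189 ± 29.9 CPM in NF_Pvalb and 48.2 ± 10.4 CPM in NF_Calb1 (log2 2.09 ± 0.13), whereas Asic3 and Asic2 were higher in NF_Calb1 (log2 -2.05 and -1.12). Gabra3, the α3 subunit of the GABA-A receptor, stood at 15.3 to 33.6 CPM against 1.33 to 4.30 CPM (log2 3.57 ± 0.28). Slc12a2, the chloride importer NKCC1, was higher in NF_Calb1 (log2 -1.37). Of 12 glutamate receptor genes tested, Grik1 and Grik2 were called higher in NF_Pvalb (log2 1.42 and 1.90) and Grik4 and Grin3a higher in NF_Calb1 (log2 -1.69 and -1.77).

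**Figure D4:**
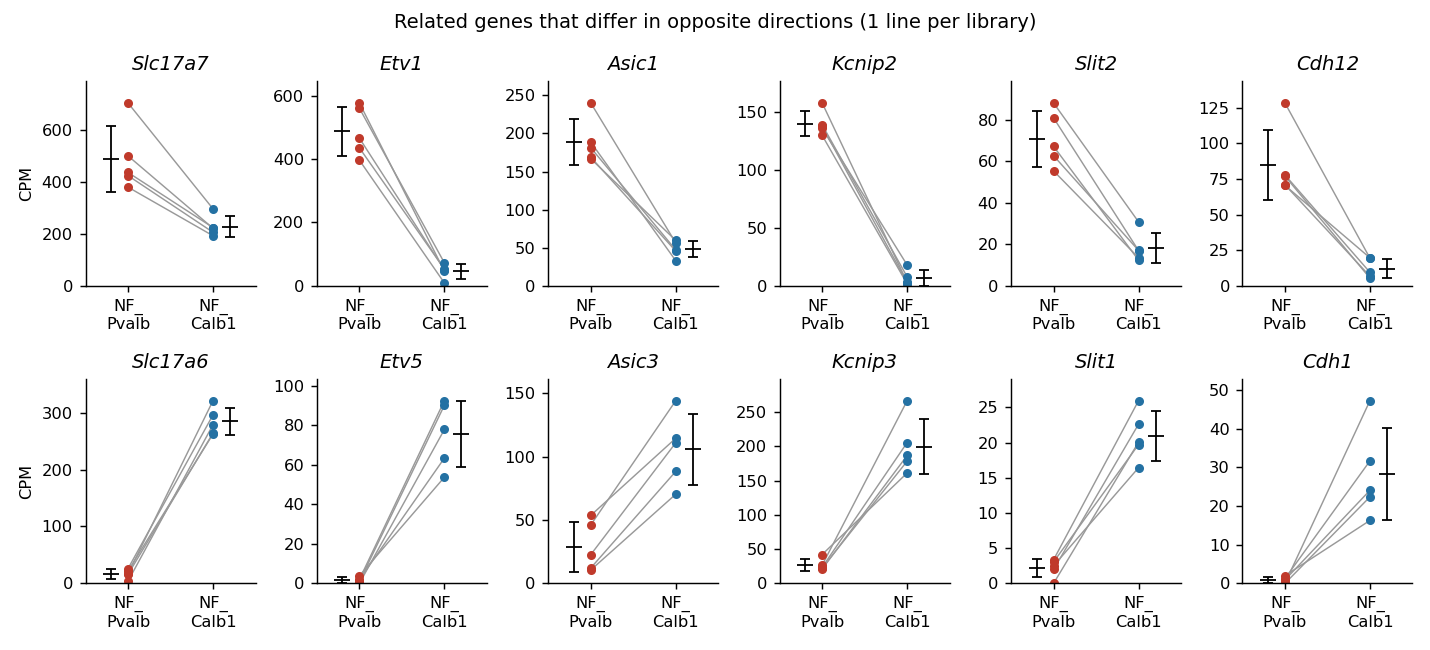
Levels (CPM, linear axes from 0) of 6 pairs of genes of one family or role in NF_Pvalb and NF_Calb1, with a grey line joining the sums of each of the 5 libraries and the mean ± SD beside the points. Lines of the upper genes (Slc17a7, Etv1, Asic1, Kcnip2, Slit2, Cdh12) fall towards NF_Calb1 in every library and those of the lower genes (Slc17a6, Etv5, Asic3, Kcnip3, Slit1, Cdh1) rise.

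Of 8 neurofilament and intermediate filament genes tested, 1 was called, Ina (above), higher in NF_Pvalb. The neurofilament genes Nefm and Nefh had log2 values of -0.15 ± 0.13 and 0.10 ± 0.13, neither called, and Nefl was -0.64 (4522 against 6983 CPM, adjusted p = 0.0026), under the 2-fold minimum. Piezo2, the main touch and proprioception channel, stood at 228, 224, 155, 203 and 197 CPM in NF_Pvalb and at 291, 353, 391, 337 and 352 CPM in NF_Calb1 (log2 -0.73 ± 0.12). Its ranges did not overlap, yet the difference stayed under 2-fold. Of 8 mechanotransduction genes tested, Whrn (above) was called higher in NF_Pvalb and Tmc6 higher in NF_Calb1 (35.4 against 1.18 CPM, log2 -4.63; -5.26 without library 4).

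Neuropeptide and nociceptor genes were called in both directions. Tac1, the substance P precursor, stood at 130, 208, 154, 260 and 146 CPM in NF_Pvalb and at 4.30, 14.6, 24.7, 4.70 and 12.5 CPM in NF_Calb1 (log2 3.80 ± 0.24). Adcyap1, the PACAP precursor, averaged 40.8 against 4.0 CPM (log2 3.65 ± 0.26). Calca and Calcb, the CGRP precursors, were lower in NF_Pvalb, at 33.8 against 173 CPM (log2 -2.22) and 10.1 against 152 CPM (log2 -3.75), with a Calca UMI in 85.0% of NF_Pvalb cells, 82.2% of NF_Calb1 cells and 88.0% of satellite glia. With equal cell numbers per library the Calca value was -1.43. P2rx3 and Htr3a, ATP and serotonin-gated channels, were also lower in NF_Pvalb (log2 -3.55 and -3.13, with -4.19 for P2rx3 without library 4). Scn10a and Prdm12 passed the test and the 2-fold minimum towards NF_Calb1 (log2 -4.24 and -3.98), but were found in 16.7% and 19.4% of its cells, under the 25% minimum.

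Of 31 guidance receptors and ligands tested, 12 were called higher in NF_Calb1 and 6 higher in NF_Pvalb, and over all genes too NF_Calb1 had more calls (586 against 403). Besides Nrp1, the semaphorin genes higher in NF_Calb1 included the co-receptor Nrp2 (log2 -2.18), the receptor Plxna4 at 58.7 to 101 CPM against 0.305 to 5.75 CPM (log2 -6.00 ± 0.28), and the ligands Sema3e (log2 -5.08; -6.25 without library 3) and Sema5a (log2 -2.80). Netrin-G1, encoded by Ntng1, averaged 148 against 9.44 CPM (log2 -4.04), and the ephrin receptor gene Epha4 20.1 against 0.703 CPM (log2 -5.00). NF_Pvalb was higher in the netrin receptors Unc5a and Unc5b (log2 1.71 and 2.68), in Dcc, with 72 UMIs against 1, a ratio of 140 (24.4 to 5625), in Ephb1 and Epha5 (log2 3.14 and 1.69) and in Slit2 (70.9 against 18.1 CPM, log2 2.08). Slit1 was higher in NF_Calb1 (log2 -2.89).

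Cadherins were spread evenly, with 5 of 17 tested called higher in NF_Pvalb and 6 higher in NF_Calb1. Cdh12, a classical cadherin, averaged 85.0 ± 24.5 against 12.1 ± 6.92 CPM (log2 2.94 ± 0.20; 3.57 with cells over 10% mitochondrial UMIs left out), and Pcdh10 68.2 against 14.4 CPM (log2 2.42). Cdh1, E-cadherin, averaged 0.827 against 28.3 CPM (log2 -4.68), and Pcdh17 26.2 against 150 CPM (log2 -2.70). Of the proteins of the node of Ranvier and its flanks, Cntn1, contactin, averaged 441 against 1522 CPM (log2 -1.75) and Nrcam 24.7 against 115 CPM (log2 -2.38), while Nfasc, Ank3 and Sptbn4 had log2 values of -0.22, -0.31 and 0.38, none called. Secreted Cbln2, a synapse organizer, was higher in NF_Pvalb (326 ± 109 against 63.7 ± 17.0 CPM, log2 2.43 ± 0.19), and Hapln1, which links hyaluronan to proteoglycans, lower (15.3 against 89.3 CPM, log2 -2.86).

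**Figure D5:**
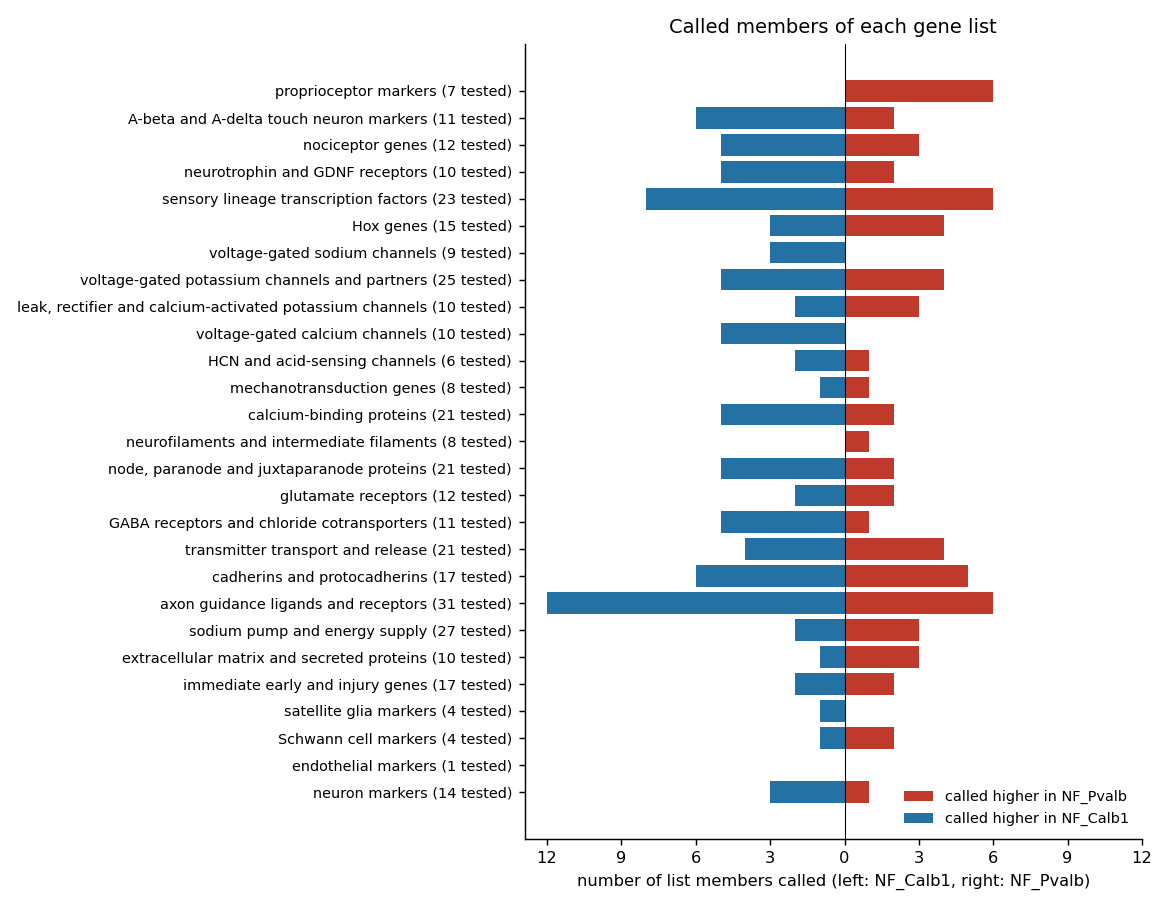
Number of tested genes of each list called higher in NF_Pvalb (bars to the right) or higher in NF_Calb1 (bars to the left). The bar of the proprioceptor markers lies to the right alone, and axon guidance genes, touch markers and calcium channels have the longer bar to the left.

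Of 21 calcium-binding protein genes tested, 14 were not called. Besides Pvalb, the gene called higher in NF_Pvalb was Vsnl1, visinin-like 1 (372 against 155 CPM, log2 1.35). Necab1 and Necab3 were higher in NF_Calb1 (log2 -4.55 and -2.44), as were S100a16 and S100a6. S100a6 stood at 15.3, 36.6, 34.4, 293 and 44.2 CPM in NF_Pvalb and at 802, 730, 992, 810 and 713 CPM in NF_Calb1 (log2 -3.68). The 293 CPM came from library 4, where 1 cell held 45.4% of the S100a6 UMIs, and without that library the value was -4.45. The NF_Calb1 levels also leaned on single cells, with 1 cell holding 46.1% of the S100a6 UMIs in library 1 and 39.6% in library 2. The median NF_Calb1 cell of a library held 0.434 to 2.56 S100a6 UMIs per 10000 UMIs, and the median NF_Pvalb cell 0.103 to 0.362. Calm3, a calmodulin gene, and S100b had log2 values of 0.35 and 0.06, neither called.

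Of 27 sodium pump and energy supply genes tested, 3 were called higher in NF_Pvalb and 2 higher in NF_Calb1, beside 4.52% and 6.57% of all genes. Aldoc, an aldolase, was higher in NF_Pvalb (554 ± 67.6 against 114 ± 43.5 CPM, log2 2.43 ± 0.17), and was also found in 98.4% of satellite glia. Ldhb, Gapdh and Ldha were higher in NF_Pvalb by less than 2-fold (log2 0.96, 0.87 and 0.72). Among immediate early and injury genes, Gap43, a growth cone protein gene, stood at 4.94 to 9.44 CPM in NF_Pvalb and 138 to 196 CPM in NF_Calb1 (log2 -4.51 ± 0.17). Egr2 and Ier2 were higher in NF_Pvalb (log2 2.04 and 1.48), whereas Fos, Junb and Jund had log2 values of 0.19, 0.17 and 0.09, none called. The summed level of the list was 1527 to 2027 CPM in NF_Pvalb and 1512 to 1931 CPM in NF_Calb1.

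Markers of other cells of the ganglion were low in both subtypes. The 17 satellite glia markers summed to 95.9 to 398 CPM in NF_Pvalb and 187 to 490 CPM in NF_Calb1, against 88800 to 112690 CPM in satellite glia. Of these, 3 were at 0 in NF_Pvalb and 1 in NF_Calb1. Of the 4 tested, Glul, glutamine synthetase, was called, higher in NF_Calb1 (log2 -1.76). The Schwann cell markers summed to 84.4 to 111 CPM and 317 to 372 CPM, a difference carried by Pmp22, a myelin protein gene (50.7 against 325 CPM, log2 -2.65), while Mbp was higher in NF_Pvalb (log2 1.22). Endothelial markers summed to 30.7 to 55.4 CPM and 52.9 to 78.1 CPM, and fibroblast and macrophage markers to at most 5.88 CPM in NF_Pvalb and 20.3 CPM in NF_Calb1. The part of such RNA in the differences above was not tested.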

How the data were processed

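Cells from dissociated lumbar DRGs were profiled on the 10x Chromium 3′ platform. The authors deposited one table of raw UMI counts and an annotation of cell types. Cell Ranger, Seurat and the mm10 build are named in the submitters' processing notes. The authors integrated the 5 libraries before clustering and stated limits of 500 to 15000 genes and 10% mitochondrial UMIs. In the deposited table, 10 NF_Pvalb and 30 NF_Calb1 cells lay above the latter and were kept. Doublets were limited by loading, and no caller was run. Of 17271 rows, 4 non-mouse rows (143 UMIs) were left out. Columns of cells not mapped to a library numbered 0.

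Counts were summed per subtype and library and fitted with edgeR 4.0.16 (R 4.3.3, filterByExpr, TMM factors 0.915 to 1.04, quasi-likelihood test, library as block, Benjamini-Hochberg). SE is the log2 fold change divided by the square root of F. Both sums of a library come from the same animal, which makes the design paired; the correlations of their deviations from the subtype means were 0.00449, 0.209, 0.0933, 0.222 and 0.351. Exact sign-flip tests over libraries used Python 3.11.15 and numpy 2.4.6. Simulated counts covered 8782 genes, with 200 changed genes split between log2 1.5 and 3. Of the changed genes, 100% at each size were recovered, with 0 false calls. The changed genes were drawn from those with higher counts, and the minimum share of cells was not applied. Recovery of genes at low counts was therefore not tested.

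The subtypes and gene lists were chosen with earlier results of these data known, and no pattern here is independent support for them. Named were Pvalb and Calb1, the 12 called genes per direction with the largest fold among those of at least 20 CPM in the higher subtype and of one direction in all libraries, members of gene lists (called members as such, others only as values), and the 5 genes most like Pvalb or Calb1 over the 14 types. Listed genes without a value are not analysed here, and some called list members are not reported here. Promoters are from RefSeq (GRCm38.p6); 7208 of 8919 tested genes (80.8%) had one. Of the called genes 76.7% and 76.5% had one, under 80%, so a comparison of motif shares between called sets was void. Alternatives were a fit without the block, DESeq2 1.42.0, upper-quartile scaling, no count filter, no share minimum, an adjusted p of 0.05, cells up to 10% mitochondrial UMIs, equal cell numbers, and leaving out each library.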

Additional observations from a re-analysis of the deposited data

Results flagged for a closer look

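In 7 of 49 groups of 5 libraries examined, 1 library stood apart by Dixon's test (critical value 0.71). Its rate of about 1 in 20 groups holds for normally distributed values. Several groups here were counts at or near 0, so the 7 cannot be set against that rate. In all of NF_Pvalb, Tmem54 and Ccdc141 had 2 UMIs each, and the Kcns3 UMIs of library 1 came from 1 cell. In NF_Pvalb, Pcdh8 was 136.1 CPM in library 1 (others 41.1 to 55.4), where 1 cell held 60.6% of its UMIs. Nrp1 was 2.519 CPM in library 3 (others up to 0.623), Kcns3 5.753 CPM in library 1 (others up to 0.623), and Tmem54 and Ccdc141 were each 1.918 CPM in library 1 (others up to 0.305). In NF_Calb1, Lhfpl2 was 29.69 CPM in library 5 (others 16.5 to 19.6) and Tmem54 16.96 CPM in library 2 (others 35.3 to 41.7). Of the 5 values in NF_Pvalb, 4 were from library 1, which had 6 NF_Pvalb cells. The groups examined did not take in every gene named above, and Runx3 and S100a6 were not among them.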

How the results depend on the processing

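Calls higher in NF_Pvalb and in NF_Calb1 numbered 369 and 551 with DESeq2, 410 and 582 with upper-quartile scaling, 502 and 785 with no count filter (16037 genes tested), 404 and 592 with no share minimum, 407 and 597 at an adjusted p of 0.05, 392 and 564 for cells up to 10% mitochondrial UMIs, 383 and 514 with equal cell numbers, and 364 to 507 and 541 to 685 with 1 library left out. All were within 1.5 times the reported counts, and the shared genes were 82.9 to 100% of the reported calls and 74.6 to 100% of the calls of the alternative. Without the library block, the pairing was ignored and 393 and 582 genes were called; of the named genes Gabra5 and Nr4a2 lost their call, and it changed no other named call. Of 157 named genes that were called, 0 reversed direction, 20 lost the call in at least 1 setting and 27 changed in fold by over 1.5 times. Some of the 157 were not tested in a setting, 4 for cells up to 10% mitochondrial UMIs and 8 with equal cell numbers. They were not counted as lost, reversed or changed there. The difference in median UMIs per cell ranged from -10335 to 1483 with 1 library left out, and the profile correlation of NF_Calb1 with NF_Pvalb minus that with PEP2_Htr3a.Sema5a from -0.0070 to 0.00055. Kcnd2 lost its call with equal cell numbers (log2 1.38, adjusted p = 0.0174), Fxyd7 without library 1 and Snap25 without library 3 or without cells over 10% mitochondrial UMIs. With equal cell numbers the log2 fold was 8.49 for Ina, 5.90 for Kcnip2, 3.49 for Unc5b and 2.55 for Ephb1. With 6 to 58 NF_Pvalb cells per library, genes at a few CPM rest on few cells. The causes were not tested.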

Other observations

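NF_Calb1 cells were of mixed makeup by gene. The groups below were made from the same counts and are given as descriptions with no test. Runx3 UMIs were found in 32 NF_Calb1 cells, from all 5 libraries (6, 6, 7, 4 and 9 cells), and the other 148 are the cells without one. The 32 cells held 176 CPM of Runx3, against 159 CPM in NF_Pvalb cells summed over libraries. These 32 cells were chosen for a Runx3 UMI, unlike the NF_Pvalb cells, so their Runx3 level was raised by the choice. They had a Pvalb UMI in 93.75% of cases (518 CPM) against 62.2% of the others (56.3 CPM), and a Calb1 UMI in 21.9% (5.91 CPM) against 64.9% (274 CPM). Whrn, however, stood at 0.422 CPM in the 32 cells and 0.481 CPM in the others, and Ret at 260 and 439 CPM. Their median depths were 67452 and 81278 UMIs.

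Grouping NF_Calb1 cells by the neurotrophin receptor with the most UMIs gave a different division. Among the 82 cells led by Ntrk2, 80 (97.6%) had a Calb1 UMI (457 CPM) and 1 a Runx3 UMI. Among the 89 cells led by Ntrk3, 18 (20.2%) had a Calb1 UMI (25.4 CPM) and 31 a Runx3 UMI. Shox2 was found in 98.8% and 43.8% of these cells, Cadps2 in 75.6% and 19.1%, and Ret stood at 371 and 431 CPM and Scn10a at 1.35 and 129 CPM. In the division by Runx3, Shox2 was found in 71.9% of cells with and 69.6% without a Runx3 UMI, and Scn10a stood at 0.422 and 98.8 CPM. The cells led by Ntrk2 and by Ntrk3 were at median depths of 77900 and 75962 UMIs.

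Over the mean levels of the 14 types (9208 genes, log2 scale), the genes most like Pvalb were Vstm2b (r = 0.969), Runx3 (0.964), Wnt7a (0.961), Gm16551 (0.958) and Stxbp6 (0.952). Those most like Calb1 were A330050F15Rik (0.880), Tmem163 (0.860), Ik (0.841), Fam13a (0.839) and Tnni1 (0.816). The types share libraries and differ in depth, so these values describe likeness only.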
